A study of Sus scrofa with 31 samples.

Results

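Whole blood of healthy miniature pigs at 20 weeks of age was compared with whole blood at 12 weeks. The comparison took every array whose title gives either age, 8 arrays of 12 weeks and 8 of 20 weeks, 16 of the 31 arrays of the series. Each age had 4 males and 4 females of the Clawn breed, kept free of specified pathogens, with no treatment and no engineered allele at either age. Blood was collected into PAXgene tubes, which fix RNA at the draw, and globin RNA was not removed. By the study's methods 1 cohort was housed from 12 weeks on and bled at both ages, so most animals are likely to recur at both. It is not stated which arrays came from the same animal, so the arrays were taken as independent, and p-values measure the spread between arrays and do not account for the repeated animals. The other arrays, 8 of fetuses and 7 of 30 weeks, entered the fit for its estimate of the spread and are cited where they bear on a result.

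Whole blood RNA mixes the transcripts of red cell precursors, granulocytes, lymphocytes, monocytes and platelets. It also carries the cell-free RNA of plasma. A change in a transcript may therefore follow the number of cells of a type or the RNA per cell, and in whole blood these cannot be told apart. Antigen presentation and the interferon response are among the functions that blood leukocytes carry out. The pig genes of the major histocompatibility complex (MHC) are named SLA, for swine leukocyte antigen. Class I molecules show peptides from inside the cell to cytotoxic T cells, and class II molecules show ingested peptides to helper T cells.

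The 2 ages shared no scan day and no slide. The 12-week arrays were scanned on 2 days, here numbered 1 (males 2, 3 and 4 and female 4) and 2 (male 1 and females 1, 2 and 3), and all 20-week arrays on day 4. Age and scan day therefore cannot be told apart in this step. The 30-week arrays bear on it, because 3 of them (males 2 and 3 and female 4) were scanned on day 4 with the 20-week arrays and 4 (male 1 and females 1, 2 and 3) on day 5. When the slide was added to the fit as a random block, 0 of 18679 probes were called and 3922 had an unadjusted p under 0.05 by limma. With the scan day as the block, 8 probes were higher and 30 lower at 20 weeks (0.203% of those tested). With the 12-week arrays of day 1 alone, 71 probes were higher and 292 lower, and with those of day 2 alone 3299 and 2354.

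Signals below are log2 values after normalization of all arrays to one distribution. Some transcripts that define blood cells were bright on every array and others were dim. The embryonic globin HBE1, the only globin gene measured, lay between 12.87 and 14.59 on the 16 arrays. The water channel AQP1 of red cells lay between 11.73 and 14.82, and GNLY, a lytic protein of cytotoxic lymphocytes, between 14.38 and 15.86. CD4, the coreceptor of helper T cells, was present on 2 of 8 arrays at 12 weeks and the erythroid gene SELENBP1 on 4 of 8. No gene of the erythroid list (8 measured of 49) was called at 20 weeks, and its median difference was 0.11 log2 units, or -0.06 with each array scaled to its 75th percentile.

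Presence of a probe means here a positive and significant signal that was also well above background. At 12 weeks 17054 ± 2311 of 43603 probes were present per array (SD, n = 8), with the lowest at 13428, the median at 16546 and the highest at 20731. At 20 weeks 19910 ± 993 were present (SD, n = 8), with the lowest at 18702, the median at 19614 and the highest at 21794. The groups overlapped, because 12-week males 1 and 3 reached the 20-week range. The mean difference of 2856 probes passed a two-sided exact permutation test (p = 0.0073). In the females alone it was 3446 probes (exact permutation p = 0.0286, the smallest that 4 against 4 arrays allow), and in the males alone 2266 (p = 0.257, exact). Against the 12-week arrays of day 1 it was 2652 (p = 0.0768, exact) and against those of day 2 it was 3060 (p = 0.0121, exact).

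The arrays of 20 weeks also resembled each other more than those of 12 weeks. For each array the median absolute deviation of the 18679 tested probes from the median of its age was taken. This distance ran from 0.193 to 0.66 log2 units at 12 weeks with a median of 0.465, and from 0.104 to 0.211 at 20 weeks with a median of 0.17. Male 4 of 12 weeks lay within the 20-week range and male 2, at 0.219, just above it. The mean distance fell by 0.264 log2 units at 20 weeks (two-sided exact permutation p = 0.000932). With the 12-week arrays of day 1 alone it fell by 0.15 (exact permutation p = 0.00404), and with those of day 2 alone it fell by 0.247 (exact permutation p = 0.00404).

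**Figure D1:**
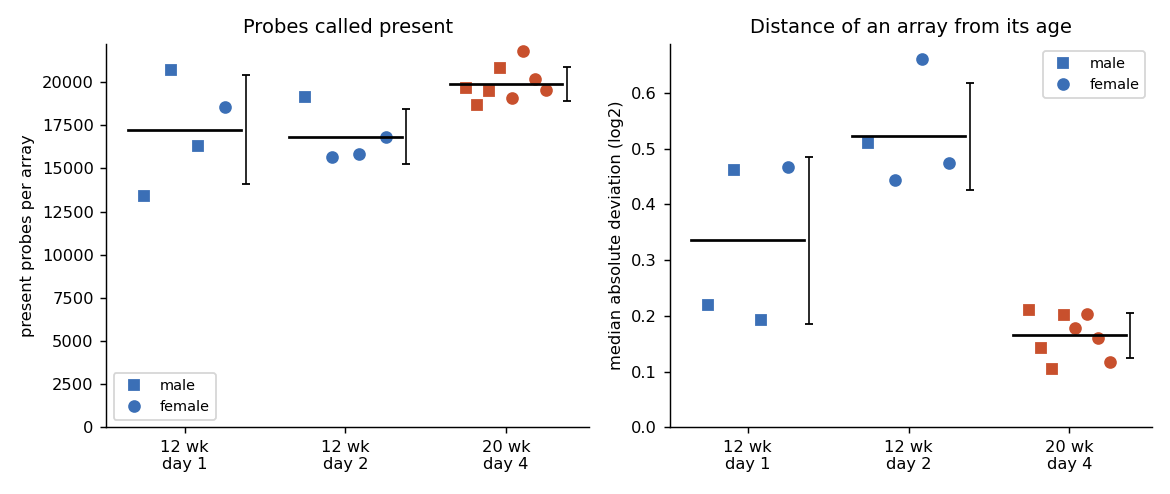
Number of present probes per array (left axis, probes) and median absolute deviation of each array from its age (right panel, log2 units) for the 12-week arrays of scan days 1 and 2 and the 20-week arrays of day 4. Squares are males, circles females, horizontal lines means and bars SD; the 20-week arrays lie between 18702 and 21794 present probes and at or below 0.211 log2 units in distance.

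Testing was limited to 18679 probes with presence in over 75% of the samples of some age. Of these, 4266 differed between 20 and 12 weeks at an adjusted p under 0.05 (22.8%). They were 2347 higher probes (12.6%) and 1919 lower probes (10.3%), and the median difference of all tested probes was 0.20 log2 units. The higher probes rose by a median of 1.26 log2 units and the lower probes changed by a median of -1.37. All 8 arrays of one age lay beyond all 8 of the other for 547 of the higher probes (2.93% of those tested) and 200 of the lower ones (1.07%). The higher probes were dimmer at 12 weeks, with a median signal of 4.71, than the lower probes, with 7.28. Of the higher probes 1008 (42.9%) were present on all 16 arrays, against 1680 (87.5%) of the lower probes and 62.6% of all tested probes. Gene names could be given to 205 of the higher and 260 of the lower probes. The brightest probe of each of 1421 named genes gave 149 higher genes (10.5%) and 174 lower genes (12.2%), which are the shares to read the gene lists against. Of the 1421 genes 35 entered the test through their presence at 20 weeks alone.

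The probes are 60 bases long, and the array files list their genome positions as unmapped. Their base composition differed between the directions. The median GC content was 38.3% for all tested probes and for the higher probes, and 41.7% for the lower ones. Among 5344 probes with a GC content of 35% or less, 5.26% were lower at 20 weeks and the median difference was 0.38 log2 units. Among the 359 probes above 45%, 25.3% were lower and the median was -0.33. Whether composition played a part in single results was not tested.

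The largest rises among named genes were those of plasma proteins made by the liver. The 6 genes were APOA1, the main protein of high density lipoprotein, SERPINA1, the protease inhibitor alpha-1-antitrypsin, GC, the vitamin D binding protein, ALB, serum albumin, TTR, a carrier of thyroid hormone and retinol, and AFP, the fetal relative of albumin. ALB, AFP and GC belong to one family, and stretches of 30 bases of their probes are shown because the family could share signal. The capitals mark the longest run that all 3 probes hold, 4 bases. Runs shared by pairs of the probes and matches to the other transcripts were not examined, so shared signal was not tested.
ALB: atctcagactaccCTGAgaataagagaaag
AFP: gtgtgaacttttccttttaattctaaCTGA
GC: cagttacagtatcCTGAtatgatgatgagt

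APOA1 had its lowest, median and highest signal at 1.45, 3.36 and 4.15 at 12 weeks and at 7.27, 8.14 and 8.95 at 20 weeks. It was present on 1 of 8 arrays at 12 weeks and on 8 of 8 at 20 weeks, without overlap. With each dim 12-week array set to the lowest signal that counted as well above background there, the rise was at least 22.2-fold. The adjusted p of 0.000478 by limma, like those beside the bounds below, belongs to the measured difference, and the bounds were not tested. SERPINA1 went from 1.33, 1.64 and 3.57 to 5.55, 6.37 and 7.28. It was not well above background on any 12-week array, so its rise was at least 7.3-fold (adjusted p = 0.00756). The other 4 genes had the same pattern, with 0 of 8 arrays present at 12 weeks and 8 of 8 at 20 weeks.

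GC rose from 1.18, 1.2 and 3.02 to 4.34, 5.09 and 5.94, or at least 3.06-fold (adjusted p = 0.00812). ALB rose from 1.19, 1.19 and 3.25 to 3.99, 4.82 and 5.83, or at least 2.42-fold (adjusted p = 0.0258). A single 12-week array, female 1 for GC and male 4 for ALB, stood above the other 7, still below every 20-week array. AFP rose from 1.42, 1.53 and 2.61 to 3.95, 4.88 and 5.84, or at least 2.52-fold (adjusted p = 0.0109). TTR rose from 1.32, 1.41 and 1.94 to 3.89, 4.76 and 5.35, or at least 2.25-fold (adjusted p = 0.0277). None of the 6 genes overlapped between the ages, which was a condition for naming them and is no separate support. GC, ALB, TTR and AFP also entered the test through their presence at 20 weeks alone. All 10 probes of the 6 genes that were tested were called higher, beside 12.6% of all tested probes. The second probes of AFP, GC and APOA1 also passed the presence rule at 20 weeks alone. As the genes were chosen for their called rises, this count is no separate support. Each bound for the 5 genes present on no 12-week array sets the 20-week mean against the lowest signal that counted as well above background on the 12-week arrays, a mean of 3.49.

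The presence calls of the brightest probes of these genes split by scan day within 30 weeks. On the 3 arrays of 30 weeks scanned on day 4, 18 of 18 presence calls of the 6 genes were positive, and on the 4 arrays of day 5 it was 1 of 24, for APOA1. Mean APOA1 was 7.38 on the former and 2.72 on the latter, SERPINA1 was 5.91 and 1.60, and AFP was 4.43 and 1.37. A second AFP probe was present on 0 and a second APOA1 probe on 1 of the 3 arrays of day 4. In the fetal arrays 29 of 48 calls were positive, with means of 9.59 for APOA1, 9.29 for SERPINA1 and 7.11 for ALB. In a fit of all 31 arrays with the 30-week arrays split by scan day, added after these values were seen, 288 of 18679 probes differed between the 30-week scan days (1.54%). APOA1 was called (adjusted p = 0.00339), and SERPINA1 (adjusted p = 0.183), AFP (adjusted p = 0.301), GC, TTR and ALB (adjusted p from 0.475 to 0.742) were not. The 12-week values were low on both of their scan days, with APOA1 at a mean of 3.12 on day 1 and 3.15 on day 2. Age and scan day cannot be told apart for this group of genes.

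The calls of the liver genes depended on the setting. Against the 12-week arrays of day 1 alone, APOA1 stayed called (adjusted p = 0.00903 by limma). The others did not, with an adjusted p from 0.0597 (SERPINA1) to 0.306 (ALB). Against those of day 2 alone APOA1, GC and AFP were called. With the scan day or the slide as a block none was called (APOA1, adjusted p = 0.119 and 0.0803). None was called in males only, and all were in females only. With background correction by normexp and an offset of 50, which compresses dim signals, APOA1 was still called (2.36 log2 units, adjusted p = 0.0034), and SERPINA1 (1.28, adjusted p = 0.113), AFP (0.81, adjusted p = 0.141), GC (0.79, adjusted p = 0.364), ALB (0.73, adjusted p = 0.504) and TTR (0.72, adjusted p = 0.392) were no longer called. ALB and TTR also lost their calls when female 2 of 12 weeks was left out.

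**Figure D2:**
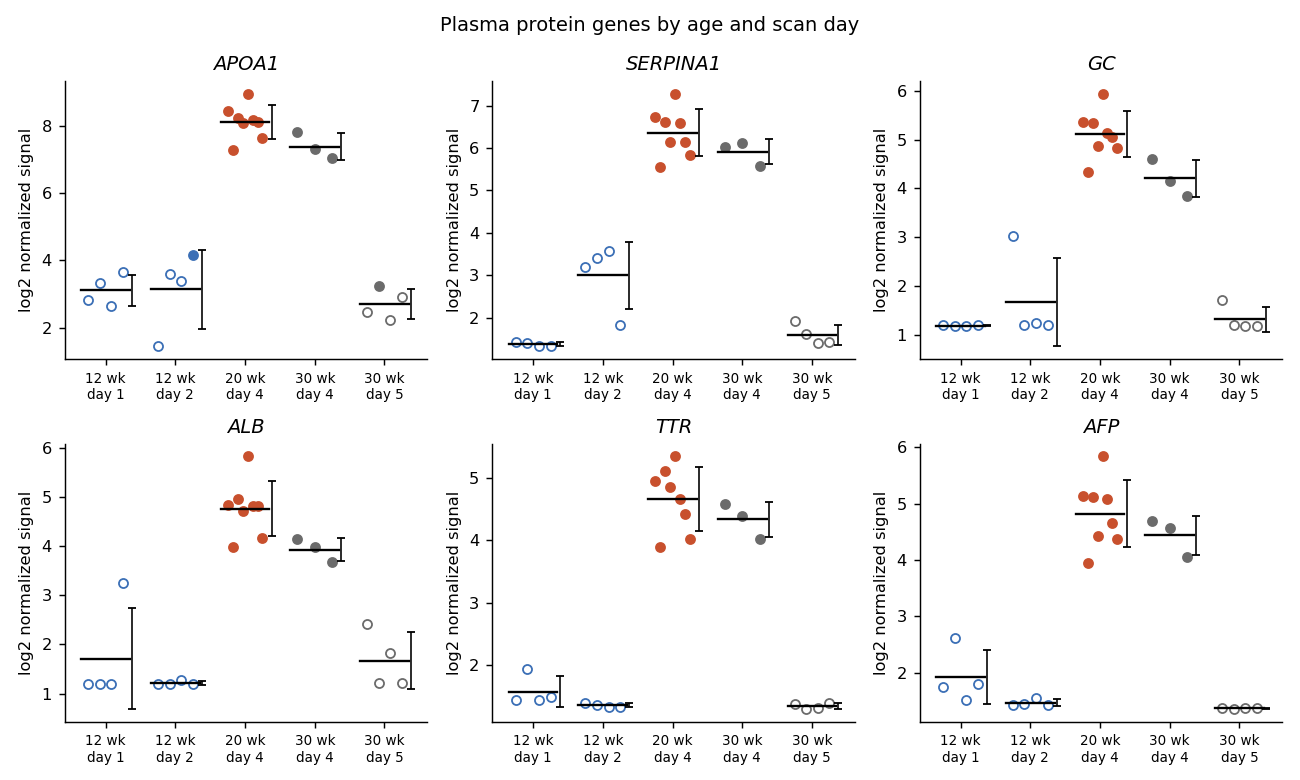
Log2 normalized signal (vertical axes) of APOA1, SERPINA1, GC, ALB, TTR and AFP on each array of 12, 20 and 30 weeks, split by scan day. Filled circles are present and open circles not present, lines are means and bars SD. All 20-week arrays and the 3 arrays of 30 weeks from scan day 4 are present. They lie above the arrays of 12 weeks and of scan day 5.

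Not every gene of the liver list moved this way. Of 35 genes listed as made mainly by the liver 13 were measured, and 6 of these entered the test through their presence at 20 weeks alone, so that the list's median says nothing of its direction and is not given. Calls were 6 higher and 2 lower, against 1 higher and 2 lower with normexp and 0 higher and 1 lower with the scan day as a block. The lower genes were RBP4, the plasma carrier of retinol, and APOC3, an apolipoprotein of very low density lipoprotein. RBP4 had 6.65, 9.99 and 10.98 as its lowest, median and highest signal at 12 weeks and 6.19, 7.11 and 7.96 at 20 weeks. Only male 1 of 12 weeks lay within the 20-week range, and the difference was -2.65 ± 0.54 (SE, adjusted p = 0.00216). APOC3, named here after its values were seen, differed by -2.19 ± 0.59 (SE, adjusted p = 0.0101). TF, the iron carrier transferrin, had probes that disagreed. Its brightest probe differed by -1.25 (adjusted p = 0.103) and another was called higher (adjusted p = 0.0102), the latter being present on 0 of 8 arrays at 12 weeks and 8 of 8 at 20 weeks.

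The MHC class I genes rose and were bright at both ages. SLA-1, SLA-2 and SLA-3 are the classical class I genes of the pig. Their sequences are nearly identical in places and a signal cannot be assigned to 1 of these genes with certainty. This can be seen in 3 of their probes, of which 30 bases each are shown. The capitals mark the 17 bases that all 3 hold.
SLA-1: agagatttccttaGTTTGAAAGAGGAAATA
SLA-2: cctatGTTTGAAAGAGGAAATAaatggaag
SLA-3: tcctatGTTTGAAAGAGGAAATAaatggaa

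These 3 probes rose by 1.02 (adjusted p = 0.0133), 1.55 (adjusted p = 0.00193) and 1.24 log2 units (adjusted p = 0.0147). The brightest SLA-1 probe had 14.02, 15.12 and 16.13 as its lowest, median and highest signal at 12 weeks and 16.47, 16.90 and 17.23 at 20 weeks. The groups did not overlap, and the rise was 1.76 ± 0.30 log2 units (SE, adjusted p = 0.000725). SLA-2 moved from 11.37, 12.78 and 13.11 to 13.19, 14.25 and 14.57, a rise of 1.55 ± 0.31. SLA-3 moved from 12.31, 13.46 and 14.37 to 14.42, 15.00 and 15.45, a rise of 1.53 ± 0.31 (adjusted p = 0.00204). Neither gene overlapped between the ages. In all, 13 of 17 tested class I probes were higher and 0 lower, with differences from 0.56 to 1.78 log2 units, beside 12.6% of all probes. SLA-7, a class I gene of low polymorphism, differed by 0.81 ± 0.31 (adjusted p = 0.0587).

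The brightest SLA-1 probe was above its 12-week mean on both scan days of 30 weeks. Its mean was 15.68 on day 1 and 14.63 on day 2 at 12 weeks, 16.91 at 20 weeks, and 16.50 on day 4 and 17.28 on day 5 at 30 weeks. In the fetus it was 12.90. The other class I probes varied. Over all 17 probes the 30-week mean minus the 12-week mean ran from -0.12 to 1.63 log2 units on day 4, with 1 probe of SLA-1 below 0 and SLA-7 close to it, and from -0.55 to 2.36 on day 5, with 1 probe of SLA-2 below 0. Against the 12-week arrays of day 1 alone, SLA-1 was still called (1.24, adjusted p = 0.0467) and SLA-2 (1.05, adjusted p = 0.125) and SLA-3 (1.09, adjusted p = 0.116) were not. With the scan day as a block SLA-1 was called (1.93, adjusted p = 0.044) and SLA-2 (1.58, adjusted p = 0.103) and SLA-3 (1.93, adjusted p = 0.054) were not. With the slide as a block none of the 3 was called (adjusted p = 0.0803 for SLA-1 and 0.0921 for SLA-2 and SLA-3). The size depended on the scaling, since the rise of SLA-1 was 0.76 (adjusted p = 0.0255) when each array was scaled to its 75th percentile.

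Other members of the class I pathway differed in both directions. Of 31 genes listed, 14 were measured and 4 were higher, with a median of 0.43 log2 units. The 4 were the 3 SLA genes and PSME3, a proteasome activator, which went from 4.07, 4.58 and 5.06 to 5.27, 5.38 and 5.62 without overlap (0.85 ± 0.23, adjusted p = 0.0106). B2M, the light chain of class I molecules, differed by -1.03 (adjusted p = 0.0539) and TAP2, a subunit of the peptide transporter, by -1.4 (adjusted p = 0.0912), neither of which was called, and both are named here after their values were seen. In the class II pathway 1 of 7 measured genes was higher and 0 lower. SLA-DRA, the alpha chain of the DR molecule, rose from 10.80, 11.71 and 12.54 to 12.08, 12.56 and 12.97 (0.85 ± 0.27, adjusted p = 0.0222). The groups overlapped, 3 other probes of the gene differed by -0.14 to 0.01, and the call was lost without female 2 or female 3 of 12 weeks (lowest difference 0.72) and with scaling to the 75th percentile (0.55, adjusted p = 0.0763). SLA-DQB1 (1.23 ± 0.51, adjusted p = 0.0776), SLA-DRB1 (0.67 ± 0.33, adjusted p = 0.137) and SLA-DMA (0.52 ± 0.28, adjusted p = 0.168) were not called.

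Interferon-stimulated genes rose in part. Of 18 measured genes of this list 5 were higher and 0 lower, and the median difference was 0.75 log2 units. Against the 12-week arrays of day 1 alone, with the scan day or the slide as a block, or in males only, 0 were called. MX2, an interferon-induced GTPase active against viruses, was present on 6 of 8 arrays at 12 weeks. Its lowest, median and highest signals were 2.85, 4.87 and 6.07 at 12 weeks and 6.45, 6.92 and 7.77 at 20 weeks. The groups did not overlap (2.26 ± 0.49, adjusted p = 0.00287), although another MX2 probe differed by 0.80 (adjusted p = 0.231). PARP12, an ADP-ribosyltransferase induced by interferon, rose from 10.55, 10.82 and 11.17 to 11.41, 11.82 and 12.69 without overlap (1.07 ± 0.28, adjusted p = 0.00834). DTX3L, a ubiquitin ligase that partners with a PARP protein, rose by 1.09 ± 0.33 (adjusted p = 0.0184), while its other probe differed by -0.89 and was not called. MX1, the relative of MX2 and named here after its values were seen, was also higher, with overlap between the ages. Its 2 probes differed by 2.66 ± 0.95 and 2.61 ± 0.82 (SE). Their means were 9.78 and 9.20 at 12 weeks. At 30 weeks they were 10.11 and 9.76 on day 4 and 11.51 and 10.66 on day 5.

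Among the interferons, their receptors and signalling genes (11 measured), 2 were higher and 1 lower, with a median of -0.09. IRF1, a transcription factor of the interferon response, rose from 8.98, 9.33 and 10.22 to 10.16, 10.44 and 10.69 (1.0 ± 0.31, adjusted p = 0.0208), with 1 array of overlap. IRF9, a relative of IRF1 that also acts in the interferon response, had 7.12, 8.83 and 9.58 at 12 weeks and 6.83, 7.32 and 7.58 at 20 weeks. Its fall of 1.43 ± 0.30 (adjusted p = 0.00263) was seen in its brightest probe, and 2 other probes of IRF9 differed by 0.36 and 0.10. The receptors showed no called change. IFNAR1 differed by 0.43 ± 0.33, IFNAR2 by 0.14 ± 0.50 and IFNGR2 by -0.60 ± 0.43.

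Toll-like receptors, which sense microbial products, were not called in this step. Differences were -0.31 ± 0.48 for TLR1, -0.10 ± 0.38 for TLR2, -0.42 ± 0.53 for TLR4, 0.08 ± 0.40 for TLR7 and 0.35 ± 0.36 for TLR10. The direction of TLR2 and TLR7 changed with the processing, and that of TLR4 against the 12-week arrays of day 1 alone (0.07). Other TLR4 probes differed by 0.55, -0.86 and -0.53 and were not called. Of the 22 measured genes of Toll-like receptor signalling 1 was higher and 0 lower, at a median of 0.11. It was RELA, a subunit of NF-kappaB, which was present on 2 of 8 arrays at 12 weeks and 8 of 8 at 20 weeks. It rose from 1.38, 3.06 and 4.39 to 4.01, 4.33 and 4.80 (1.37 ± 0.48, adjusted p = 0.0371), was called in 7 of 16 fits that left out 1 array, and rose by 0.29 with normexp.

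**Figure D3:**
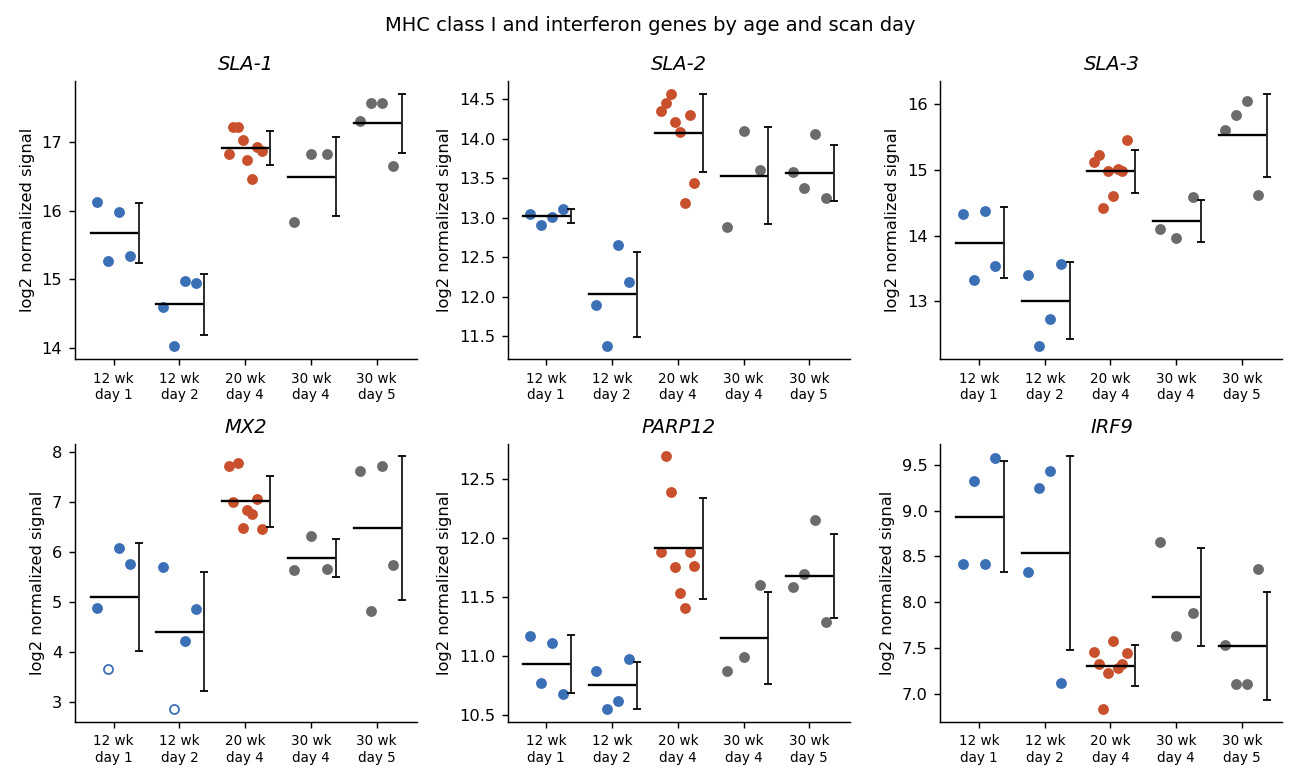
Log2 normalized signal (vertical axes) of SLA-1, SLA-2, SLA-3, MX2, PARP12 and IRF9 on each array of 12, 20 and 30 weeks, split by scan day. Filled circles are present and open circles not present, lines are means and bars SD; the 8 arrays of 20 weeks lie above all 12-week arrays for the SLA genes, MX2 and PARP12, and IRF9 is lower at 20 weeks.

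Among named genes, which 1659 of the 1919 lower probes lack, the largest falls without overlap between the ages were seen in MOBKL3, CYP2A19, PPARG, BMP15 and SYT2. MOBKL3, a Mob family adaptor of protein kinases, had 8.94, 10.73 and 11.86 as its lowest, median and highest signal at 12 weeks and 6.87, 8.10 and 8.33 at 20 weeks (-2.88 ± 0.40, adjusted p = 0.000392). CYP2A19, a cytochrome P450 of the pig, had 6.4, 8.36 and 8.96 and then 4.88, 5.52 and 5.86 (-2.33 ± 0.43, adjusted p = 0.00128). BMP15, a growth factor known from the oocyte, had 6.05, 7.40 and 8.28 and then 4.71, 5.18 and 5.65 (-1.96 ± 0.33, adjusted p = 0.000757). For all 3 the lowest array of 12 weeks stood above the highest of 20 weeks. PPARG, a nuclear receptor of fat cells and macrophages, was present on 8 of 8 arrays at 12 weeks and 4 of 8 at 20 weeks and differed by -2.02 ± 0.54 (adjusted p = 0.00917), or by -0.46 (adjusted p = 0.11) with normexp. SYT2, a calcium sensor of synaptic vesicles, differed by -1.82 ± 0.53 (adjusted p = 0.0147).

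Further genes that fell without overlap were INSL3, a hormone of the testis (-1.34 ± 0.32), PRKACB, a catalytic subunit of protein kinase A (-1.29 ± 0.46), RPL12, a protein of the large ribosomal subunit (-1.21 ± 0.26), CD47, a surface signal against phagocytosis (-1.16 ± 0.30), NPC2, a lysosomal carrier of cholesterol (-1.15 ± 0.27), SELENOK, a selenoprotein of the endoplasmic reticulum (-1.13 ± 0.29, with another probe at 0.51 and not called), and the gene named TBPRF10 in the files (-1.46 ± 0.27). PRKACB was the least stable of them, since it was called in 3 of the 16 fits that left out 1 array. Of the 12 named genes with the largest rises without overlap, those outside the groups above were NUP62, a protein of the nuclear pore (1.81 ± 0.61, called in 11 of 16 such fits, with another probe at -0.61 and not called), and GANAB, a glucosidase of the endoplasmic reticulum (1.78 ± 0.53). GANAB averaged 10.29 on day 1 and 7.79 on day 2 at 12 weeks against 10.82 at 20 weeks. With day 1 alone its difference was 0.53 (adjusted p = 0.688), and without female 2 of 12 weeks it lost its call at 1.41.

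Several genes fell strongly with 1 or 2 arrays of 12 weeks in overlap. DES, the muscle filament desmin, had 10.16, 12.18 and 12.84 at 12 weeks and 8.91, 10.04 and 10.47 at 20 weeks (-2.25 ± 0.39, adjusted p = 0.000881), and was the only gene called among 13 of muscle and connective tissue, whose median was -0.21. GATA2, a transcription factor of blood stem cells and basophils, had 8.46, 11.04 and 12.39 and then 7.96, 8.38 and 9.92 (-2.14 ± 0.49, adjusted p = 0.00363). IGL, the immunoglobulin lambda light chain, had 6.84, 10.31 and 11.41 and then 6.77, 7.78 and 8.43 (-2.40 ± 0.53, adjusted p = 0.00324). Male 1 was the lowest 12-week array for all 3, and males 1 and 3 were the 12-week arrays that reached into the 20-week range, male 3 only for GATA2. They were also the 12-week arrays with the most present probes, 19123 and 20731, and whether this played a part was not tested. At 30 weeks the means of these genes, like those of MOBKL3 and RBP4, were higher on day 4 than on day 5. They were 10.46 and 8.92 for DES, 10.25 and 8.64 for GATA2, 8.71 and 6.61 for IGL and 8.71 and 6.69 for MOBKL3. Sex and scan day are mixed in these means, since by the titles day 4 held mostly males and day 5 mostly females. The labels of female 1 of 30 weeks, a day 5 array, conflict. Its title, followed here, says female and its gender tag male. For DES (10.22) and GATA2 (10.61) male 1 of day 5 lay above males 2 and 3 of day 4. For IGL (7.96), MOBKL3 (6.69) and RBP4 (6.17) male 1 lay below males 2 and 3. Over the 1919 lower probes the median difference between day 4 and day 5 at 30 weeks was 0.51 log2 units, over the 2347 higher probes -0.12, and over all tested probes -0.02. All 3 genes were also called against the 12-week arrays of day 1 alone, at -2.49 for DES (adjusted p = 0.00391), -2.13 for GATA2 (adjusted p = 0.0356) and -3.05 for IGL (adjusted p = 0.00391).

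**Figure D4:**
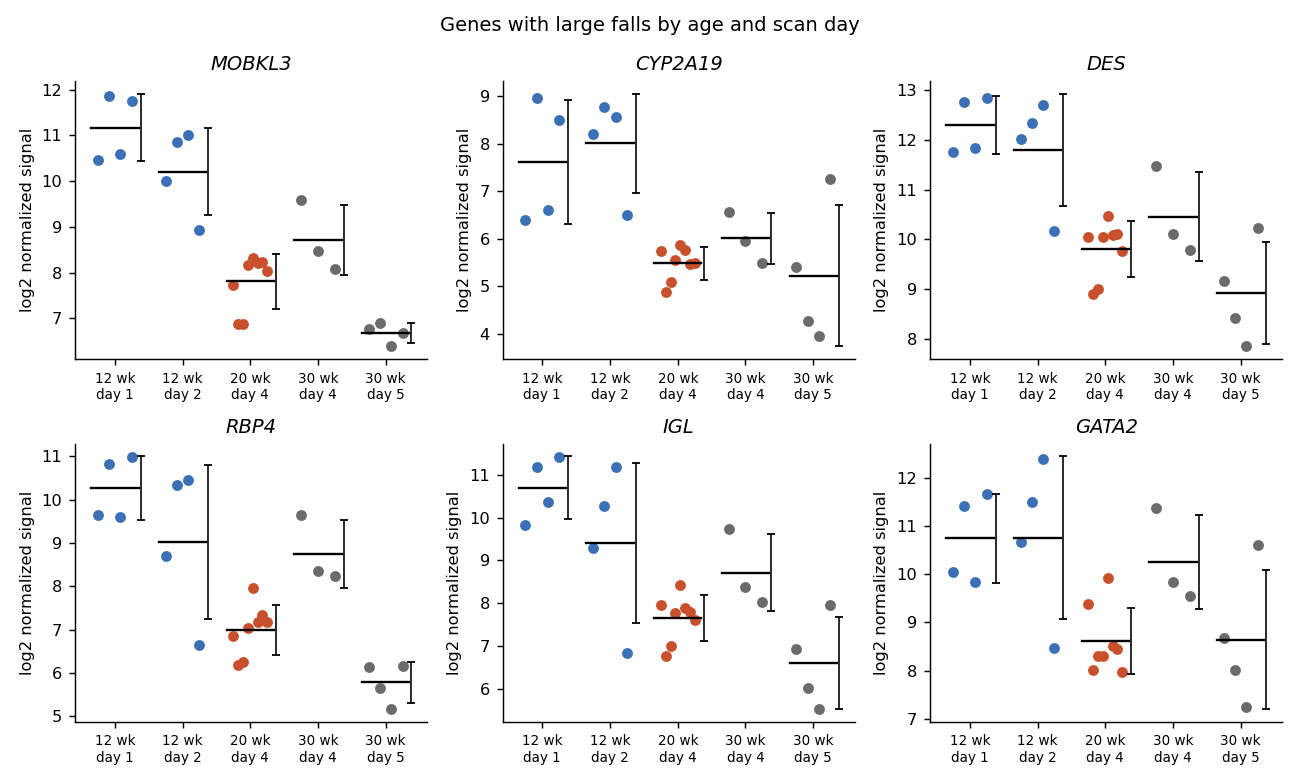
Log2 normalized signal (vertical axes) of MOBKL3, CYP2A19, DES, RBP4, IGL and GATA2 on each array of 12, 20 and 30 weeks, split by scan day. Filled circles are present and open circles not present, lines are means and bars SD; MOBKL3 and CYP2A19 do not overlap between 12 and 20 weeks, and male 1 is the lowest 12-week array for DES and IGL.

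Markers of blood cell types changed in few members and in both directions. Among T cell genes 1 of 13 was higher and 0 lower at a median of 0.35. It was CCR7, the homing receptor of naive T cells and of dendritic cells, at 1.33 ± 0.45 (adjusted p = 0.0317), called in 11 of 16 fits that left out 1 array. CD4 differed by 1.06 ± 0.47 (adjusted p = 0.0987) and was present on 2 of 8 arrays at 12 weeks and 8 of 8 at 20 weeks. CD2, an adhesion receptor of T cells, differed by -0.87 ± 0.39 (adjusted p = 0.104). Among B cell and antibody genes 0 of 12 were higher and 2 lower, at a median of 0.51. The lower ones were IGL and PIGR, the receptor that carries antibodies across epithelia (-1.55 ± 0.57, adjusted p = 0.0476, called in 6 of 16 such fits). IGHD, the IgD heavy chain of naive B cells, differed by 0.98 ± 0.42 (adjusted p = 0.0832). The heavy chain genes IGHM and IGHG are named here after their values were seen. IGHM differed by 0.94 ± 0.53 and was not called. Probes of IGHG disagreed, from -0.71 for the brightest, which was not called, to 1.34 for 1 that was called higher. With all probes of a gene averaged, 1 gene of the list was higher and 1 lower, at a median of 0.79.

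Genes of NK and cytotoxic cells gave 2 lower of 9 measured, at a median of -0.21. CD226, an activating receptor, went from 5.36, 7.21 and 8.29 to 4.66, 5.52 and 5.89 (-1.60 ± 0.38, adjusted p = 0.00476). GNLY went from 14.61, 15.40 and 15.86 to 14.38, 14.57 and 14.94 (-0.76 ± 0.19, adjusted p = 0.00671). In both genes a single 12-week array, male 3 for CD226 and male 1 for GNLY, lay within the 20-week range. CCL5, a chemokine of cytotoxic cells, differed by 0.76 ± 0.45 (adjusted p = 0.215).

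In myeloid genes, 1 of 17 monocyte and macrophage genes was higher and 0 lower, at a median of 0.12. CTSB, the lysosomal protease cathepsin B, went from 8.14, 10.25 and 11.60 to 11.38, 11.71 and 11.94 (1.66 ± 0.41, adjusted p = 0.00581). For CD163, the haemoglobin scavenger receptor of macrophages, 2 of 3 probes were called at 1.58 and 1.70, and the brightest, at 1.26, was not (adjusted p = 0.076). Among neutrophil genes 1 of 14 was higher and 2 were lower. MMP9, a protease of granules, went from 10.14, 10.54 and 11.91 to 10.91, 11.77 and 12.65 (1.17 ± 0.30, adjusted p = 0.00787). The lower ones were NPG4, an antimicrobial protegrin (-1.48 ± 0.41, adjusted p = 0.0123), and PGLYRP1, which binds bacterial peptidoglycan (-1.44 ± 0.45, adjusted p = 0.0223), the latter called in 13 of 16 fits that left out 1 array. Of eosinophil, basophil and mast cell genes only GATA2 of 7 was called. XCR1, the chemokine receptor of cross-presenting dendritic cells, fell by 1.70 ± 0.51 log2 units (adjusted p = 0.0176), and with the rise of CCR7 it made up the 2 calls among 5 dendritic cell genes.

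Platelet genes split evenly, with 2 higher and 2 lower of 16 at a median of -0.11. TBXAS1, the thromboxane synthase, was present on 4 of 8 arrays at 12 weeks and rose by 1.70 ± 0.34 (adjusted p = 0.00193), or by 0.52 with normexp. TGFB1, a cytokine stored in platelets, rose from 4.94, 8.13 and 9.11 to 8.63, 9.04 and 9.30 (1.46 ± 0.45, adjusted p = 0.0201). THBS1, the matrix protein thrombospondin of alpha granules, went from 8.80, 10.90 and 12.62 to 7.43, 8.89 and 10.43 (-1.76 ± 0.56, adjusted p = 0.0237). PPBP, a platelet chemokine, differed by -1.17 ± 0.42 (adjusted p = 0.0416). TGFB1 lost its call without female 2 of 12 weeks (1.09), THBS1 in 3 and PPBP in 10 of the 16 fits that left out 1 array.

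Of 31 cytokines, chemokines and their receptors 7 were higher and 4 lower, at a median of 0.27, and 3 of the 31 entered the test through their presence at 20 weeks alone. IL16, a chemoattractant of CD4 cells, rose from 10.21, 10.99 and 12.21 to 12.30, 12.51 and 12.61 without overlap (1.32 ± 0.33, adjusted p = 0.006). LTA, or lymphotoxin alpha, was present on 2 of 8 arrays at 12 weeks and 8 of 8 at 20 weeks (1.46 ± 0.38, adjusted p = 0.00764). TNF, its relative and a main inflammatory cytokine, fell from 7.43, 8.34 and 9.25 to 6.97, 7.08 and 7.57 (-1.19 ± 0.29, adjusted p = 0.00521). MIF, an inhibitor of macrophage migration, fell from 13.31, 14.63 and 15.12 to 12.82, 13.45 and 13.65 (-1.19 ± 0.28, adjusted p = 0.00409). LTA rose by 0.24 with normexp. In the complement list 1 of 11 was called. It was C5AR1, the receptor of the anaphylatoxin C5a, with 6.92, 8.45 and 9.74 at 12 weeks and 5.78, 6.68 and 7.39 at 20 weeks (-1.76 ± 0.41, adjusted p = 0.0039).

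Genes of cell growth and protein synthesis showed small shifts. Of 37 ribosomal protein genes 0 were higher and 3 lower, at a median of 0.19, close to that of all probes. The direction turned with the scaling, since the median was -0.42 with 0 higher and 7 lower when each array was scaled to its 75th percentile, where the median of all probes was 0.172. Among the lower genes were RPL12 and RPLP0, a protein of the ribosomal stalk (-1.23 ± 0.26, adjusted p = 0.00263). Of 10 translation factors 2 were higher and 1 lower, and their median of 0.16 was -0.29 with that scaling. EIF3D (1.01 ± 0.21, adjusted p = 0.00234) and EIF3B (1.40 ± 0.34, adjusted p = 0.00568), both subunits of initiation factor eIF3, rose without overlap, and EIF4B, a helper of the helicase eIF4A, fell (-1.06 ± 0.29, adjusted p = 0.00955). No gene of the cell cycle list (9 measured) was called.

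In energy metabolism, 5 of 31 genes of glycolysis and central metabolism were higher and 2 lower, at a median of 0.45. PGD, of the pentose phosphate pathway, rose from 9.73, 10.49 and 11.72 to 11.47, 11.75 and 11.97 (1.14 ± 0.29, adjusted p = 0.0066). The 12-week arrays of day 1 were nearer to 20 weeks, with a mean PGD signal of 11.07, than those of day 2, with 10.13. The glucose transporter SLC2A1 fell (-0.92 ± 0.27, adjusted p = 0.017), and lost its call without female 2 of 12 weeks (-0.71). Among 20 genes of oxidative phosphorylation SDHA (1.33 ± 0.42, adjusted p = 0.0238) and SDHB (0.74 ± 0.21, adjusted p = 0.014), both subunits of succinate dehydrogenase, rose, and COX7A1, a subunit of cytochrome c oxidase, fell (-1.0 ± 0.35, adjusted p = 0.0357). SDHA lost its call without female 1 or female 2 of 12 weeks (lowest difference 1.14), and COX7A1 was called in 6 of the 16 fits that left out 1 array.

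Protein quality control genes gave 3 higher and 1 lower of 15 in the proteasome and ubiquitin list. PSMC5, an ATPase of the proteasome cap, rose from 8.87, 10.04 and 10.36 to 10.62, 10.82 and 11.05 without overlap (0.92 ± 0.21, adjusted p = 0.0034). VCP, a segregase that feeds the proteasome, rose by 1.37 ± 0.44 (adjusted p = 0.0257) and the ubiquitin activating enzyme UBA1 by 0.78 ± 0.29 (adjusted p = 0.0469). In the heat shock and early response list 3 of 19 were higher and 1 lower, the latter being TNF. HSPH1, a chaperone of the HSP110 family, rose from 5.78, 7.46 and 8.71 to 8.25, 8.79 and 9.23 (1.27 ± 0.37, adjusted p = 0.0142), while its other probe differed by -0.7 and was not called. VCP lost its call without female 1 or female 2 of 12 weeks (lowest difference 1.18). The calls of UBA1, HSP90AB1 and HSPB1 were held in 3 to 5 of the 16 fits that left out 1 array. HMOX1, the haem oxygenase, rose without overlap from 5.28, 6.30 and 6.76 to 6.90, 7.30 and 7.69 (1.03 ± 0.35, adjusted p = 0.0309, called in 8 of those 16 fits), and HEBP1, a haem binding protein, fell (-0.84 ± 0.24, adjusted p = 0.0138). They were the 2 calls among 9 genes of globin and haem synthesis, in which HBE1 differed by -0.68 ± 0.28 (adjusted p = 0.0752).

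Of 16 genes of growth and hormone response 0 were higher and 5 lower, at a median of -0.32, and 1 was called higher with scaling to the 75th percentile and 2 with the 16 arrays fitted alone. The 5 were IGF2 and IGF1, the insulin-like growth factors, CYP19A1, the aromatase that makes oestrogens, and ADIPOR1 and ADIPOR2, the adiponectin receptors. IGF2 went from 8.64, 10.26 and 11.67 to 7.66, 8.34 and 8.90 (-1.72 ± 0.41, adjusted p = 0.00472). Its 5 probes disagreed, with 2 called lower and 1, present on 0 of 8 arrays at 12 weeks, called higher (adjusted p = 0.00432). CYP19A1 went from 7.27, 8.39 and 9.06 to 6.88, 7.18 and 7.74 (-1.0 ± 0.25, adjusted p = 0.00702), and ADIPOR1 differed by -1.18 ± 0.31 (adjusted p = 0.00839). ADIPOR2 differed by -0.73 ± 0.26, had another probe at 0.49 that was not called, and was called in 4 of the 16 fits that left out 1 array.

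**Figure D5:**
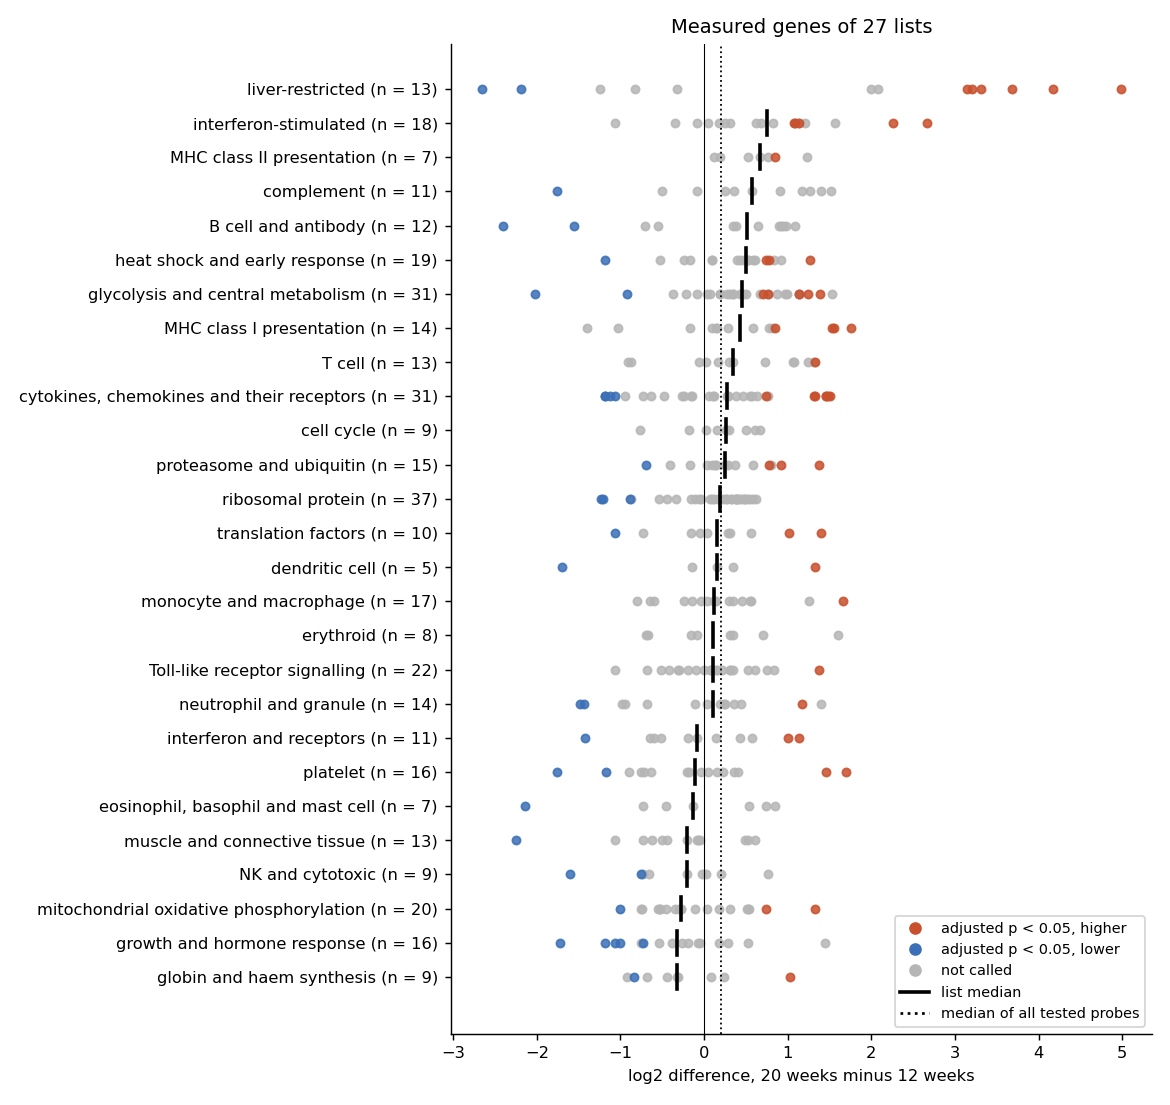
Log2 difference of 20 weeks minus 12 weeks (horizontal axis) for the measured genes of 27 lists (rows), with called genes in colour, list medians as thick bars and the median of all tested probes, 0.20, as a dotted line. No median is drawn for the liver list, where 6 of 13 genes entered the test through 20 weeks alone; it holds 6 called higher and 2 called lower.

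Detection changed more in the direction of gain. On the rule of presence on more than 75% of arrays, 13517 probes were expressed at 12 weeks and 17918 at 20 weeks, of which 13312 at both. At 20 weeks 4606 probes were newly expressed, and 205 were no longer expressed. Of the 4606 probes 1189 were also called higher, and 1104 were present on 6 arrays of 12 weeks, just under the rule. Among the newly expressed probes 31 were present on all 8 arrays of 20 weeks and none of 12 weeks. They included probes of APOA1, SERPINA1, GC, ALB, TTR, AFP, TF and IGF2. They also held F2, or prothrombin (adjusted p = 0.0704), ITIH1, a plasma protease inhibitor (adjusted p = 0.123), LECT2, a chemokine of the liver (adjusted p = 0.229), and ITGAL, an integrin chain of leukocytes. On the 30-week arrays of day 5, 16 of the 31 were present on no array, 11 of which on all 3 arrays of day 4, and 14 were present on at least 3 of the 4 arrays of day 5.

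No probe had a step that was called different between the sexes. In a limma fit with age and sex combined, 0 of 18679 probes had a different step in males and females, and 343 had an unadjusted p under 0.05. In the 4 males alone 0 probes were called in either direction and 2791 had an unadjusted p under 0.05, and in the 4 females alone 1110 were higher and 1323 lower. SLA-1 rose by 1.37 in the males (adjusted p = 0.223) and by 2.15 in the females (adjusted p = 0.0325). APOA1 had an adjusted p of 0.223 by limma in the males and of 0.0262 in the females. A call in females only does not show a difference between the sexes. Most 12-week males were scanned on day 1 and most 12-week females on day 2, so sex and scan day are mixed in these values. SLA-1 rose by 1.24 against the 12-week arrays of day 1 alone and by 2.28 against those of day 2 alone.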

How the data were processed

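Whole-blood RNA of miniature pigs was measured on 31 single-colour Agilent porcine arrays, 1 per sample. The intensity values deposited for each spot are processed signals, which the authors obtained with Agilent Feature Extraction (version 9.5.3.1 per the labels, 10.1.1.1 per the file headers) with background subtracted and no scaling between arrays. The authors also deposited quantile-normalized log2 values, used here as an alternative. Spots of a probe were averaged without outlier spots, and log2 values were quantile normalized (limma 3.58.1, R 4.3.3). Presence required the flags for positive, significant signal and for signal well above background. Of 43603 probes, 18679 present on more than 75% of arrays of an age were fitted with limma over 4 ages, with Benjamini-Hochberg adjustment. The script was tested on simulated data. Names came from accessions, gene names or descriptions in the files (39909 probes unnamed), and the brightest probe stood for a gene. Named genes were the 12 largest called rises and falls without overlap, up to 4 genes with the smallest adjusted p per list, and all SLA genes, Toll-like receptors, interferon receptors and globins. The genes and lists were chosen with earlier results of these data known. Single values used exact permutation tests in scipy 1.17.1. The number of arrays limits the precision. Alternatives are given in the closing section. Results for some named genes are not reported here.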

Additional observations from a re-analysis of the deposited data

Results flagged for a closer look

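In the 30-week arrays, which are not among the 16 arrays compared, the 6 liver genes gave 18 of 18 presence calls on the 3 arrays of scan day 4 and 1 of 24 on the 4 arrays of scan day 5. The number was 1 of 48 at 12 weeks and 48 of 48 at 20 weeks.

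Among 262 sets of 8 arrays checked, the highest or lowest array stood far from the other 7 in 23. Chance alone would mark about 1 in 20 sets if the values were normally distributed, which was not tested. In 4 liver genes the highest 12-week array stood apart, at 2.61 for AFP and 1.94 for TTR in male 2, 3.25 for ALB in male 4 and 3.02 for GC in female 1, none of them present there. Female 2 of 12 weeks was the lowest for CCL5 (3.01), CCNB1 (2.79), PSMC5 (8.87), SELENBP1 (1.36) and STMN1 (7.30). Male 1 of 12 weeks was the lowest for DES (10.16), GNLY (14.61) and IGL (6.84). Female 3 of 12 weeks was the lowest for TLR1 (6.61), and female 4 the highest for MMP9 (11.91).

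At 20 weeks the array that stood apart was male 4 for CD226 (lowest, 4.66) and UBA1 (highest, 11.25), male 3 for NPG4 (highest, 9.01) and PSME3 (highest, 5.62), male 2 for HBE1 (highest, 14.13), and female 1 for TNF (highest, 7.57). It was female 2 for INSL3 (lowest, 3.67) and PRDM1 (highest, 6.21), and female 3 for LGALS3 (highest, 10.95).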

How the results depend on the processing

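The numbers of higher and lower probes, 2347 and 1919, moved with the processing. They were 3743 and 2793 with each array scaled to its 75th percentile, 2990 and 1842 with normexp, 2104 and 1817 in the deposited log2 values, 5016 and 3073 with the 16 arrays fitted alone, 1068 and 1732 among probes present on all 16 arrays, and 6029 and 3683 with array weights. With the slide as a block they were 0 and 0, with the scan day as a block 8 and 30, with the 12-week arrays of day 1 only 71 and 292, in males only 0 and 0, and in females only 1110 and 1323. The methods' t-test called 4887 and 2936 after Benjamini-Hochberg adjustment and 6041 and 3677 without it. Leaving out 1 array gave 1221 to 3047 higher and 1187 to 2348 lower probes, the fewest without female 2 of 12 weeks (1221 and 1187). The median of all tested probes was 0.20, and 0.0708 with normexp. The causes of these differences were not tested.

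The step was called different between the sexes for 0 probes under every setting run (179 at an unadjusted p under 0.05 with the slide as a block and 521 with scaling to the 75th percentile). The difference in present probes, 2856, was 2266 in males only (exact permutation p = 0.257), 2652 against day 1 of 12 weeks (exact permutation p = 0.0768), and 2338 to 3381 when 1 array was left out. The distance of arrays from their age differed by -0.283 to -0.218 when 1 array was left out. Newly expressed probes numbered 3774 to 4874 when 1 array was left out, and probes no longer expressed 172 to 311, the latter number without male 2 of 12 weeks, and 526 when presence required positive and significant signal only. The median of the neutrophil list, 0.11, was -0.18 with all probes of a gene averaged.

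Of 78 called genes among the 129 named by the rule, 13 stayed called against day 1 of 12 weeks alone, 73 against day 2 alone, 3 with the scan day as a block, 0 with the slide as a block, 69 with normexp, 72 with scaling to the 75th percentile, and 55 in every fit that left out 1 array. No called gene changed direction in these alternatives. Genes without a call did: CD86 (0.03) and TLR7 (-0.02) with normexp, RPL4 (-0.08) and TLR2 (0.04) with scaling to the 75th percentile, TLR2 with array weights (0.06) and the scan day as a block (0.19), IFNAR2 (-0.02) and TLR2 (0.05) in males only, IFNAR2 (-0.04), TLR2 (0.21) and TLR4 (0.07) against day 1, TLR7 (-0.02) against day 2, IFNAR2 (-0.08) and TLR2 (0.03) without female 1, TLR2 (0.05) without female 2 and TLR7 (-0.05) without female 3 of 12 weeks. Over the fits that left out 1 array IFNAR2 ran from -0.08 to 0.31, TLR2 from -0.2 to 0.05 and TLR7 from -0.05 to 0.22.

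Whether equal replicate numbers mark the same animal could not be decided from the signals, since scan day and slide also differ between the ages. Deviations of arrays with the same number correlated between -0.49 and 0.227, and 1 of 8 arrays correlated best with its own number. With the replicate block, fitted to the 16 arrays alone, 4523 probes were higher and 2754 lower. The 16 arrays normalized and fitted alone without that block gave 5016 and 3073.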
